A study of Saccharomyces cerevisiae with 6 samples.

Results

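Transfer RNA carries more chemical modifications than any other class of RNA. Most are placed after transcription by enzymes that each recognise 1 or a few positions of the molecule. Methyltransferases add methyl groups to bases or to the ribose, pseudouridine synthases turn uridine into its isomer pseudouridine, dihydrouridine synthases reduce uridine, and deaminases turn adenosine into inosine. Modifications in the anticodon loop act on decoding and reading frame, whereas those in the rest of the molecule act on folding and stability.

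The 32 genes described here encode such enzymes and their partner subunits in Saccharomyces cerevisiae, and they were taken by gene symbol from the probe annotation of the array. All 32 were found, of 5365 named genes in all, and all 32 had a value in each of the 3 hybridisations. They comprise 16 methyltransferase genes (with the partner subunits TRM82, TRM112 and GCD10), 8 pseudouridine synthase genes, 4 dihydrouridine synthase genes, 3 deaminase genes and the isopentenyltransferase gene MOD5. TRM2 was represented by 2 features with identical values in every scan, which were treated as 1 measurement, and each of the other members by a single feature.

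The cells were S288C, a common laboratory strain, grown with shaking at 25 °C in YPD, a rich medium with glucose. Tetrachloroethylene, a chlorinated solvent, was added to exponentially growing cultures to 3.3 mM, and treated cells were taken after 2 h. The untreated cells were taken before the addition. On each array the treated cells were labelled with Cy5 and the untreated cells with Cy3. Each of 3 independent biological samples was hybridised to 1 array, and each array was read at a high and a low laser power.

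Values are log2 ratios of treated over untreated cells, averaged over the 2 scans, so that a value of -1 is a 2-fold lower level after treatment. The labels state neither the logarithm's base nor the direction of the ratio, and both were read from the dye labels and from convention. All signs, ranks and calls of lower or higher rest on that reading, and they exchange throughout if the ratio runs the other way. Errors after ± are SD over the 3 hybridisations (n = 3). No untreated culture was sampled at 2 h and dyes were not exchanged, so time in culture and dye cannot be told apart from the solvent. Each ratio is relative to the total messenger RNA labelled, so a change in cell number or in total messenger RNA per cell cannot be seen. No signal intensities were used here, so levels of different genes are not compared and the strain could not be checked against marker levels. Among 11 measured marker genes of mating type and sporulation, 4 fell and 0 rose, namely MF(ALPHA)2, STE3 and SAG1, the 3 measured of 4 genes marking alpha cells (means from -1.57 to -1.37), and SPS4, 1 of 4 sporulation genes, whose means ran from -0.95 to 1.64 (SPR3). None of the 4 measured genes marking a cells passed (0.30 to 1.55), and the part of these genes in the results was not tested. Among all genes tested 11.9% fell and 9.14% rose. The highest of these marker means, of SPR3 and MFA2, rested largely on hybridisation 1. SPR3 had ratios of 3.50, 0.43 and 0.97 in hybridisations 1, 2 and 3, and MFA2 had 4.29, -0.22 and 0.59.

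Transcripts of the tRNA modification enzymes were lower after treatment in 16 cases and higher in 0 (limma, adjusted p under 0.05 over 5349 genes), and 16 did not pass. Thus 16 of 32 members fell, against 11.9% of all genes tested. With the sign turned, the same 16 members would be higher, against the same 11.9%. The corresponding share of all genes that rose was 9.14%. The member genes' mean log2 ratios ranged from -1.28 (PUS4) to 0.51 (PUS5), with a median of -0.72, and the median over all genes was -0.02. The means of 29 members lay below 0, as did those of 2769 of all 5349 genes. In all 3 hybridisations 26 members were below 0, as were 31.3% of all genes. A fall of at least 2-fold past the threshold was found for 9 members, PUS4, PUS7, DUS4, DUS3, NCL1, GCD10, PUS1, TRM11 and TRM7, or for 5.52% of all genes. Of the 32 members, 15 were among the lowest 10% of all means.

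The median member stood at -0.71 in hybridisation 1, -0.71 in hybridisation 2 and -0.91 in hybridisation 3, so the median had the same sign on each array. The number of calls nevertheless changed with the array left out. Each such fit had 2 arrays. Without hybridisation 1 the members' adjusted p followed the size of the mean alone. It therefore did not measure how well the 2 arrays agreed. How much of the change in counts came from the arrays and how much from the variance estimate was not tested. Without hybridisation 1, 26 members fell and 1, PUS5, rose (22.4% of all genes fell and 21.4% rose). Without hybridisation 2, 14 members fell, against 7.35% of all genes. Without hybridisation 3, 0 members passed by limma, with a lowest adjusted p of 0.0761, and over all 5349 genes 0 fell and 1 rose. In that setting 16 members had an unadjusted p under 0.05 and a lower level, against 13.9% of all genes. The spread over all genes was wider in hybridisation 1 (SD 0.90) than in hybridisations 2 (0.65) and 3 (0.67).

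**Figure D1:**
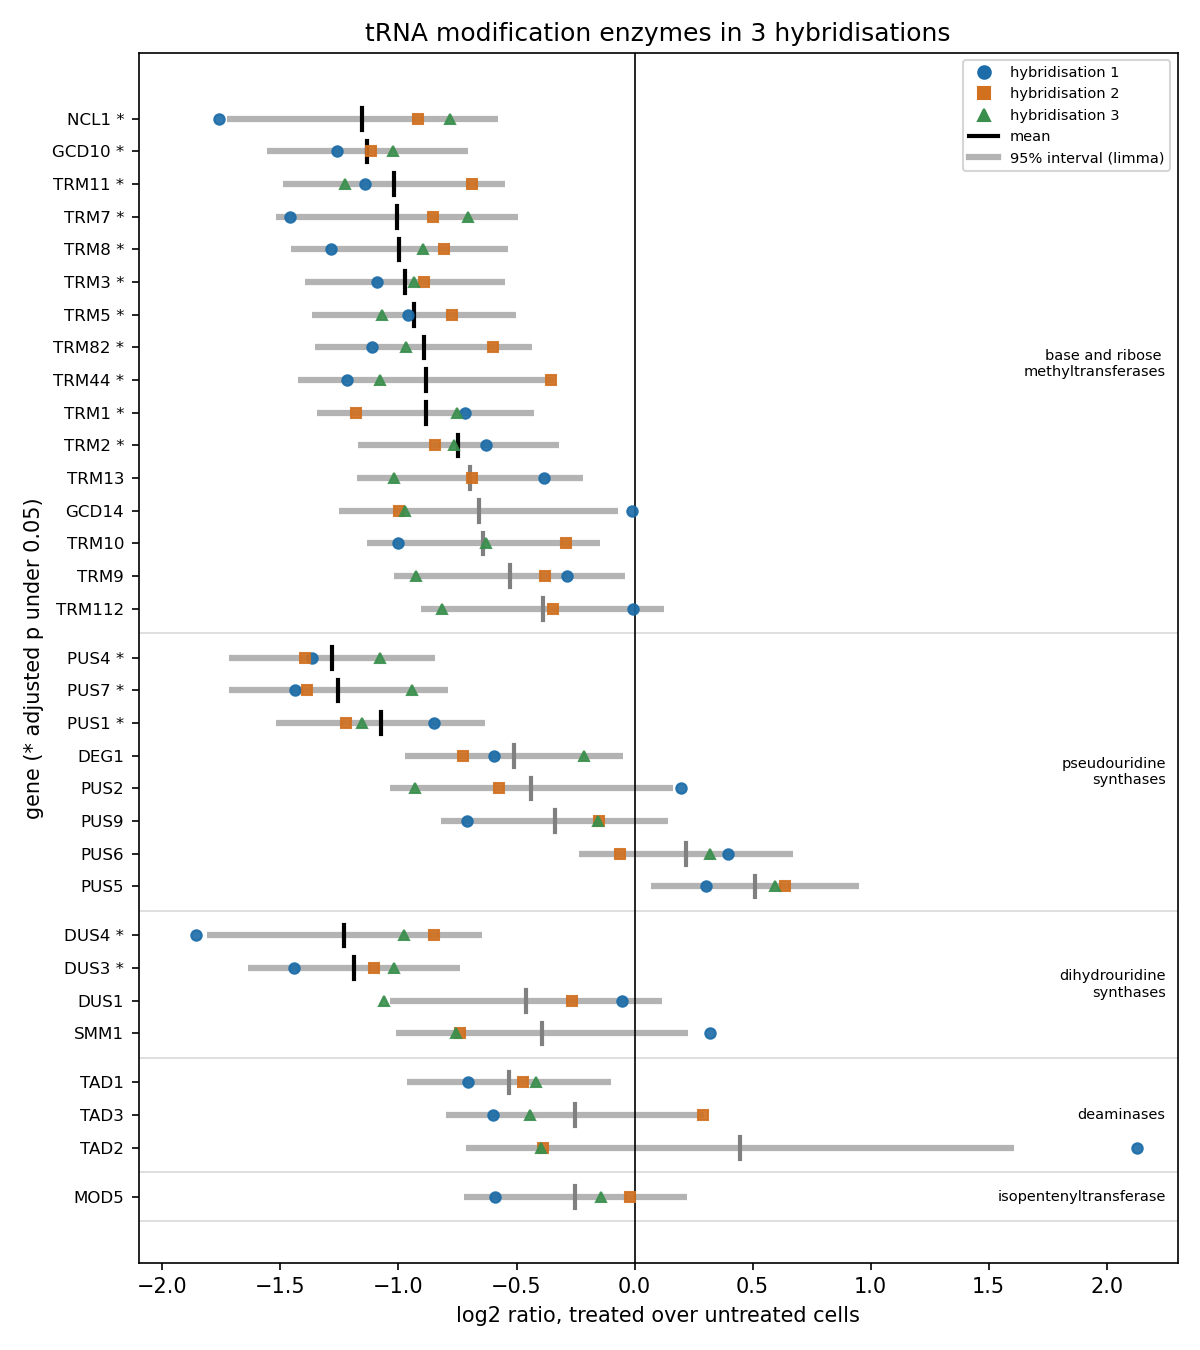
Log2 ratios (x axis, treated over untreated cells) of the 32 tRNA modification genes (y axis, grouped by enzyme class), with a point for each of 3 hybridisations, a vertical bar for the mean and a grey band for the 95% interval of the mean by limma. Asterisks mark the 16 genes with an adjusted p under 0.05, all to the left of 0, and TAD2 shows a single high point at 2.13 in hybridisation 1.

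**Figure D2:**
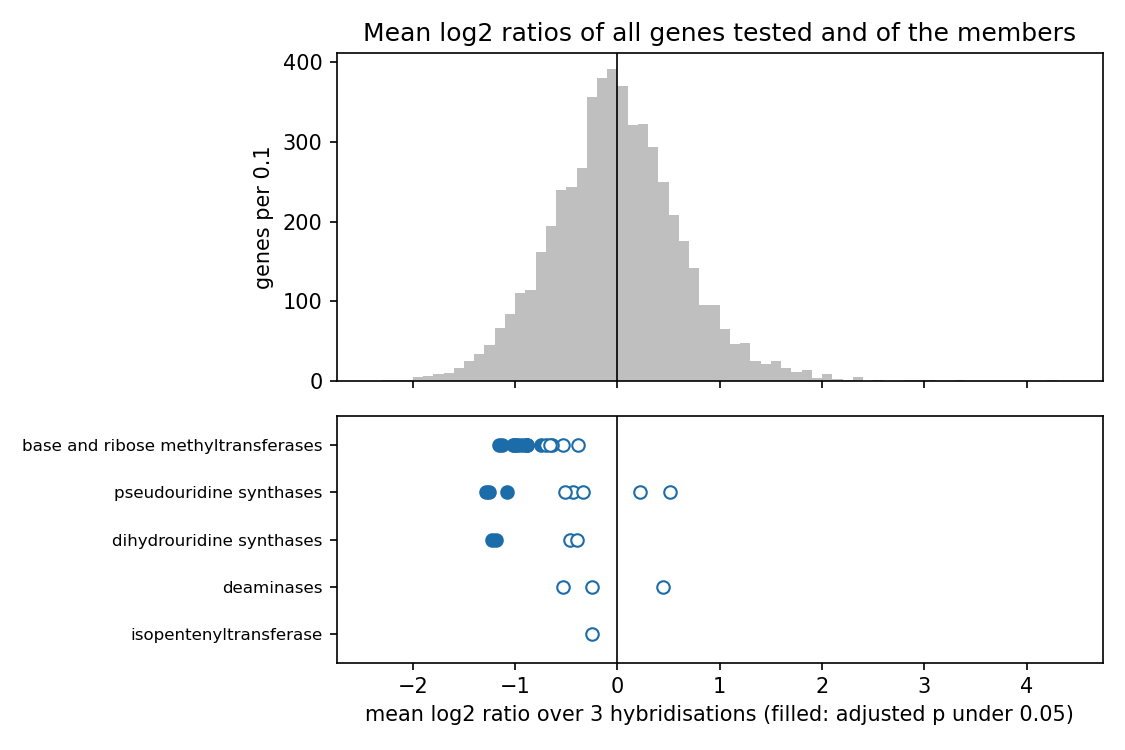
The upper panel counts the mean log2 ratios of all 5349 genes tested in steps of 0.1, and the lower panel sets the members by class on the same x axis, filled where the adjusted p was under 0.05. The methyltransferase genes lie between -1.15 and -0.39, on the left side of a distribution with a median of -0.02.

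Lower levels passed the threshold for 11 of the 16 methyltransferase genes and higher levels for 0, and all 16 were below 0 in all 3 hybridisations. Their median log2 ratio was -0.89. NCL1 encodes the enzyme that makes 5-methylcytidine at several positions of many tRNAs. Its ratios were -1.76, -0.92 and -0.78 in hybridisations 1, 2 and 3, a mean of -1.15 ± 0.53 or 2.22-fold lower (adjusted p = 0.0210 by limma). Hybridisation 1 was the lowest of the 3, and each array alone showed a lower level after treatment.

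GCD10 and GCD14 encode the subunits of the essential enzyme that makes 1-methyladenosine in the T loop. GCD10 had ratios of -1.26, -1.12 and -1.02, with a mean of -1.13 ± 0.12 (2.19-fold lower, adjusted p = 0.0116). The 3 arrays lay close together. GCD14 had ratios of -0.01, -0.997 and -0.97, with a mean of -0.66 ± 0.56, short of the threshold (adjusted p = 0.0996). The subunits had like values in hybridisations 2 and 3 and differed in hybridisation 1, by -1.25. Without hybridisation 1, in a fit of 2 arrays, GCD14 stood at -0.99 and fell (adjusted p = 1.10e-06). That adjusted p followed the size of the mean alone and did not measure how well the 2 arrays agreed.

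TRM8 and TRM82, the catalytic and the partner subunit of the enzyme that makes 7-methylguanosine in the variable loop, both fell. TRM8 had ratios of -1.29, -0.81 and -0.89, with a mean of -0.996 ± 0.26 (1.99-fold lower, adjusted p = 0.0180). TRM82 had ratios of -1.11, -0.60 and -0.97, with a mean of -0.89 ± 0.26 (adjusted p = 0.0230). Their difference, -0.10 ± 0.15, was smaller than its spread over the arrays.

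TRM11 encodes a guanosine methyltransferase of the D arm that works with TRM112. Its ratios were -1.14, -0.69 and -1.23, with a mean of -1.02 ± 0.29 (2.03-fold lower, adjusted p = 0.0180). TRM9, which completes a side chain on the wobble uridine of the anticodon and also needs TRM112, had ratios of -0.28, -0.38 and -0.92 and did not pass (adjusted p = 0.107). TRM112 itself, the small cofactor that these methyltransferases share, had ratios of -0.01, -0.35 and -0.81 and did not pass (-0.39 ± 0.41, adjusted p = 0.229). For both TRM9 and TRM112 hybridisation 3 was the lowest, and their ratios differed by 0.14 ± 0.12. Of the further partners of TRM112, BUD23, which methylates 18S ribosomal RNA, fell to -1.33 ± 0.23 (adjusted p = 0.0103), and MTQ2, which methylates a translation release factor, stood at 0.09 ± 0.11 (adjusted p = 0.742).

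TRM7, a ribose methyltransferase of the anticodon loop, had ratios of -1.46, -0.86 and -0.71, with a mean of -1.01 ± 0.40 (adjusted p = 0.0219). It works with RTT10 at the wobble position and with TRM732 elsewhere in the loop. RTT10 had ratios of -1.87, -1.03 and -1.14 and fell to -1.35 ± 0.46 (adjusted p = 0.0131). TRM732 had ratios of -0.12, 0.16 and 0.02, a mean of 0.02 ± 0.14 that did not pass (adjusted p = 0.945) and whose sign turned in other settings. TRM732 was above TRM7 on all 3 arrays, by 1.03 ± 0.30. For this and for 10 other pairs of genes compared on the same arrays, an exact sign-flip test over 3 arrays cannot go below p = 0.25 (two-sided), and the lowest p adjusted over the 11 pairs was 0.344. The test could therefore not separate the genes of any pair, whatever the size of their difference.

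**Figure D3:**
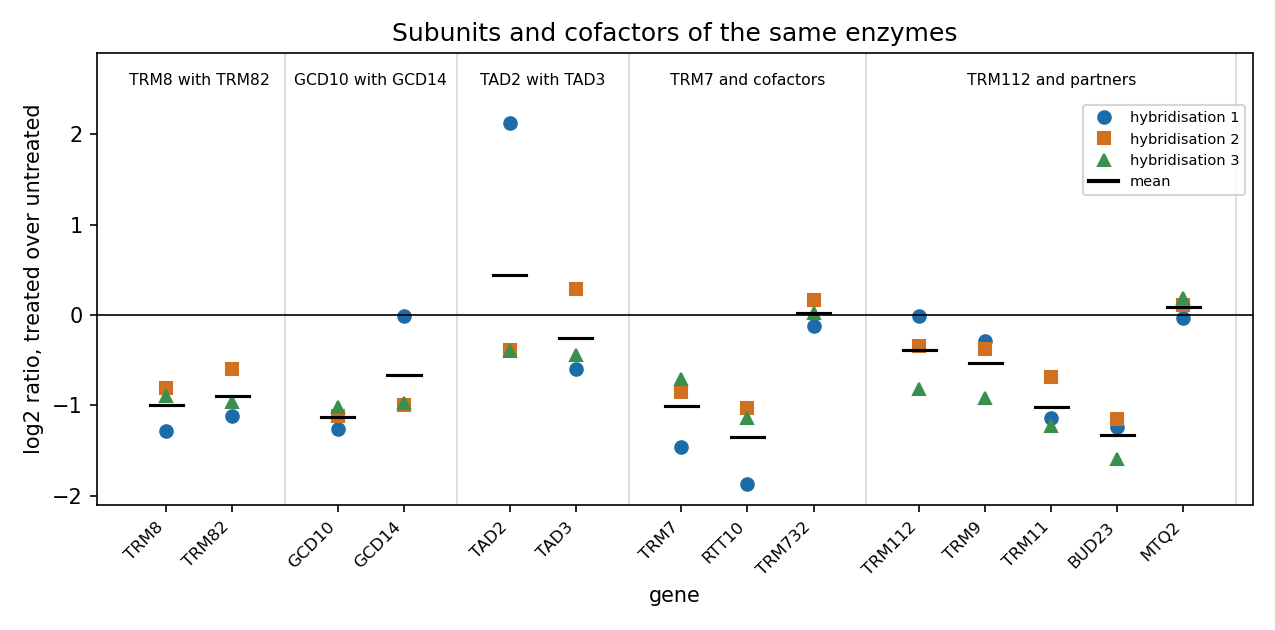
Log2 ratios (y axis, treated over untreated cells) of genes whose products work together (x axis), with a point for each hybridisation and a bar for the mean. TRM8 and TRM82 lie together and GCD14 and TAD2 have 1 array apart from the other 2. TRM732 lies near 0 beside TRM7 and RTT10, which fell, and MTQ2 lies near 0.

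The remaining methyltransferase genes act at single places of the molecule. TRM3, which methylates the ribose of a guanosine in the D loop, had ratios of -1.09, -0.89 and -0.94 and a mean of -0.97 ± 0.10 (adjusted p = 0.0159). TRM5, which methylates the guanosine next to the anticodon, had ratios of -0.96, -0.77 and -1.07 and a mean of -0.93 ± 0.15 (adjusted p = 0.0180). These had the smallest spreads beside GCD10 and TRM2.

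TRM44, a ribose methyltransferase of serine tRNAs, had ratios of -1.22, -0.35 and -1.08 (mean -0.88 ± 0.46, adjusted p = 0.0380). TRM1, which dimethylates a guanosine between the D arm and the anticodon stem, had ratios of -0.72, -1.18 and -0.75 (mean -0.88 ± 0.26, adjusted p = 0.0234). TRM2, which makes the ribothymidine that gives the T loop its name, had ratios of -0.63, -0.85 and -0.77 (mean -0.75 ± 0.11, adjusted p = 0.0307). All 3 fell, and hybridisation 2 was the highest for TRM44 and the lowest for TRM1 and TRM2. The calls for TRM1 and TRM2 ended without hybridisation 2 (adjusted p = 0.154 and 0.183). For each of these genes the ratios on the remaining arrays lay close together.

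TRM13, a ribose methyltransferase of the acceptor stem, had ratios of -0.38, -0.69 and -1.02 and just missed the threshold (mean -0.70 ± 0.32, adjusted p = 0.0514). In the R64 annotation it neighbours TRM11, whose ratios on the same arrays were lower or alike. TRM10, which methylates a guanosine between the acceptor stem and the D arm, had ratios of -1.003, -0.29 and -0.63 (mean -0.64 ± 0.36, adjusted p = 0.0690).

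The pseudouridine synthases were divided. PUS4, PUS7 and PUS1 fell, 0 of the 8 genes rose, and the other 5 missed the threshold. PUS4 makes the pseudouridine found in the T loop of nearly all tRNAs. Its ratios were -1.37, -1.40 and -1.08, and its mean of -1.28 ± 0.18 (2.43-fold lower, 95% interval -1.72 to -0.84, adjusted p = 0.0104) was the lowest of the members, at rank 121 of 5349 genes from the lowest (from the highest with the sign turned). PUS7, which acts on tRNA, on a spliceosomal RNA and on messenger RNA, had ratios of -1.44, -1.39 and -0.94 and a mean of -1.26 ± 0.27 (2.39-fold lower, adjusted p = 0.0114). PUS1, which acts at several positions of tRNA, had ratios of -0.85, -1.22 and -1.15 and a mean of -1.08 ± 0.20 (2.11-fold lower, adjusted p = 0.0138). On each of the 3 arrays these 3 genes lay at -0.85 or lower.

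PUS2, the relative of PUS1 that acts on mitochondrial tRNA, had ratios of 0.20, -0.58 and -0.93 (mean -0.44 ± 0.58, adjusted p = 0.246), and was above PUS1 on all 3 arrays, by 0.64 ± 0.41. DEG1, also called PUS3, which acts in the anticodon stem and loop, had ratios of -0.59, -0.73 and -0.21 (mean -0.51 ± 0.27, adjusted p = 0.101). PUS9, which acts on the anticodon loop of mitochondrial tRNA, had ratios of -0.71, -0.15 and -0.15 (mean -0.34 ± 0.32, adjusted p = 0.262). These 3 had means below 0 and did not pass.

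The other two synthases had means above 0. PUS6, which acts in the anticodon stem in cytoplasm and mitochondria, had ratios of 0.40, -0.06 and 0.32 (mean 0.22 ± 0.24, adjusted p = 0.438). PUS5 modifies the large ribosomal RNA of mitochondria rather than a tRNA, and it was the sole member above 0 on all 3 arrays. Its ratios were 0.30, 0.64 and 0.59, with a mean of 0.51 ± 0.18 and a 95% interval of 0.07 to 0.95, and it missed the threshold after adjustment (unadjusted p = 0.0286, adjusted p = 0.0906). It rose without hybridisation 1 (adjusted p = 0.00330), where the adjusted p followed the size of the mean alone.

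The 4 dihydrouridine synthases, flavin enzymes that together make all dihydrouridine of yeast tRNA, fell into 2 pairs. DUS4, which acts in the D loop, had ratios of -1.86, -0.85 and -0.98 and a mean of -1.23 ± 0.55 (2.34-fold lower, adjusted p = 0.0193). DUS3, which acts in the variable loop, had ratios of -1.44, -1.10 and -1.02 and a mean of -1.19 ± 0.22 (2.28-fold lower, adjusted p = 0.0117). Both fell, with hybridisation 1 the lowest.

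DUS1 had ratios of -0.05, -0.27 and -1.06 (mean -0.46 ± 0.53, adjusted p = 0.208). SMM1, also called DUS2, had ratios of 0.32, -0.74 and -0.76 (mean -0.39 ± 0.62, adjusted p = 0.309). Both enzymes act in the D loop, both genes had their highest value in hybridisation 1, and neither passed. Without hybridisation 1 their means were -0.66 and -0.75, and both fell (adjusted p = 0.00148 and 0.000279). In that fit the adjusted p followed the size of the mean, not the spread of the arrays.

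None of the 3 deaminase genes passed by limma, and TAD1 alone was lower at an unadjusted p under 0.05. TAD1, which makes inosine next to the anticodon of alanine tRNA, had ratios of -0.71, -0.47 and -0.42 (mean -0.53 ± 0.15, adjusted p = 0.0790). TAD2 and TAD3 encode the subunits of the essential deaminase that makes inosine at the wobble position. TAD2 had ratios of 2.13, -0.39 and -0.40 (mean 0.45 ± 1.46, adjusted p = 0.530), and both scans of hybridisation 1 were high, at 1.94 and 2.32. The positive mean of TAD2 rested on that array: without it the mean was -0.39. TAD3 had ratios of -0.60, 0.29 and -0.44 (mean -0.25 ± 0.47, adjusted p = 0.455), and was low where TAD2 was high. MOD5, which adds an isopentenyl group to the adenosine next to the anticodon, had ratios of -0.59, -0.02 and -0.14 (mean -0.25 ± 0.30, adjusted p = 0.393).

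The members were read on both scans in 18, 30 and 32 cases in hybridisations 1, 2 and 3. The median absolute difference between the scans of a member was 0.24, 0.27 and 0.18 on the log2 scale, and the highest was 0.87, for PUS4 in hybridisation 2 (-0.97 in the high and -1.83 in the low power scan). In hybridisation 1 the other 14 members had a value in the high power scan alone. These were TRM5, TRM8, TRM11, TRM44, GCD10, PUS4, DUS3 and DUS4, which fell, and TRM9, PUS2, PUS5, PUS9, TAD1 and TAD3, which did not pass. In hybridisation 2, PUS7 and TRM82, which both fell, had a value in the low power scan alone (-1.39 and -0.60). TRM44 had scans of -0.74 and 0.03 in hybridisation 2, so its place there depended on the scan. Both scans of a hybridisation come from 1 array and count as 1 measurement.

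**Figure D4:**
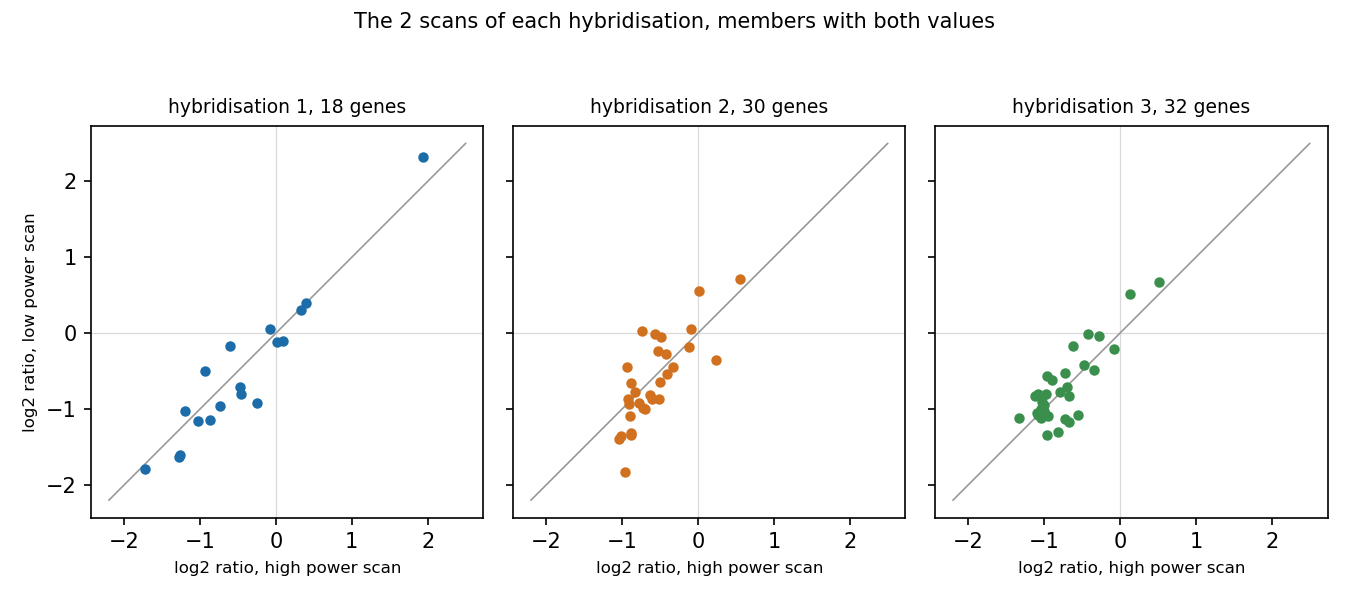
Log2 ratio in the high power scan (x axis) against that in the low power scan (y axis) for the members with both values, in 1 panel for each hybridisation, with the line of equal values. Most points lie below 0 on both axes, and the isolated point at upper right in hybridisation 1 is TAD2 (1.94 and 2.32).

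Genes of neighbouring steps were taken from 7 lists drawn up from general knowledge of yeast. Of 81 genes, 76 had a value and 5 (IKI3, KTI11, ATS1, PCC1 and LOS1) had no feature. In all, 24 of the 76 fell and 0 rose, or 31.6% lower, with a median of -0.50. Among all genes tested 11.9% fell, which is the share to set beside the count of each list below. Without hybridisation 3, none of the lists had a call by limma. Without hybridisation 2, calls ended for ELP3, NCS6, SUA5, TYW3, THG1 and SEN34 among the genes named here.

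The wobble uridine is first modified by Elongator, a complex of 6 subunits, before TRM9 completes the side chain. Of 10 measured genes of Elongator and its regulators, 3 fell and 0 rose (median -0.60). ELP2 had ratios of -1.73, -1.33 and -1.61 (mean -1.56 ± 0.21, adjusted p = 0.00847), below all members. SAP185, a subunit of a phosphatase that acts on Elongator, fell to -1.11 ± 0.17 (adjusted p = 0.0127). The catalytic subunit ELP3 had ratios of -0.32, -1.27 and -1.12 and fell to -0.90 ± 0.51 (adjusted p = 0.0407). ELP4, with a mean of -0.92 ± 0.78, missed the threshold (adjusted p = 0.0694). The list had 6 calls of 10 when hybridisation 1 was left out, a setting in which 22.4% of all genes fell.

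Sulfur is added to the same uridine by a route that uses the ubiquitin-like protein URM1. Of its 7 genes, NCS2 (-1.26 ± 0.25, adjusted p = 0.0112) and NCS6 (-0.82 ± 0.24, adjusted p = 0.0291) fell and 0 rose, with a median of -0.07. NCS2 and NCS6 encode the partners of the last, thiolating step. AHP1, a peroxidase to which URM1 is attached, was above 0 on all 3 arrays (0.53, 0.55 and 0.76) and just missed the threshold (0.61 ± 0.13, adjusted p = 0.0533). It rose in 5 of the 11 alternatives that measured it, among them the setting without hybridisation 1. Of 6 genes for threonylcarbamoyladenosine, a modification next to the anticodon, KAE1 (-1.12 ± 0.37, adjusted p = 0.0166) and SUA5 (-0.88 ± 0.21, adjusted p = 0.0216) fell and 0 rose, with a median of -0.34. SUA5 makes the activated intermediate and KAE1 transfers it to the tRNA.

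Wybutosine is built on the methylguanosine that TRM5 places in phenylalanine tRNA. Of the 4 later enzymes of that route, TYW1 had ratios of -1.50, -1.48 and -1.31 and fell to -1.43 ± 0.10 (2.70-fold lower, adjusted p = 0.00897). TYW3 fell to -0.72 ± 0.22 (adjusted p = 0.0404). TRM12 (0.32 ± 0.11, adjusted p = 0.231) and PPM2 (-0.53 ± 0.20, adjusted p = 0.0834) did not pass. TRM12 was above 0 on all 3 arrays, whereas TRM5, TYW1, TYW3 and PPM2 were below 0 on all 3.

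Among 12 other modification factors, RTT10 and THG1, which adds the extra guanosine at the start of histidine tRNA (-0.88 ± 0.10, adjusted p = 0.0203), fell and 0 rose, or 16.7%, near the 11.9% of all genes. Of 21 genes for end processing, splicing and export of tRNA, 5 fell and 0 rose, or 23.8%, with a median of -0.39. The lowest were LHP1, the yeast La protein that binds new RNA polymerase III transcripts (-1.43 ± 0.38, adjusted p = 0.0111), the RNase P subunit RPP1 (-1.08 ± 0.11, adjusted p = 0.0127), the 3′ endonuclease TRZ1 (-0.91 ± 0.40, adjusted p = 0.0296) and the splicing endonuclease subunit SEN34 (-0.78 ± 0.36, adjusted p = 0.0428). CCA1, which adds the end to which amino acids are joined, had a mean of -0.77 ± 0.43 and lay at the threshold (adjusted p = 0.0502).

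Of 16 relatives of the members that modify other RNAs or proteins, 8 fell and 0 rose, with a median of -0.85. They included the ribosomal RNA methyltransferases NOP1 (-2.12 ± 0.30, adjusted p = 0.00733), BUD23 and EMG1 (-1.29 ± 0.14, adjusted p = 0.0100), and the pseudouridine synthase CBF5 of small nucleolar particles (-1.39 ± 0.26, adjusted p = 0.0100). The share in this list equalled that among the members, and no test of a difference between lists was made.

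**Figure D5:**
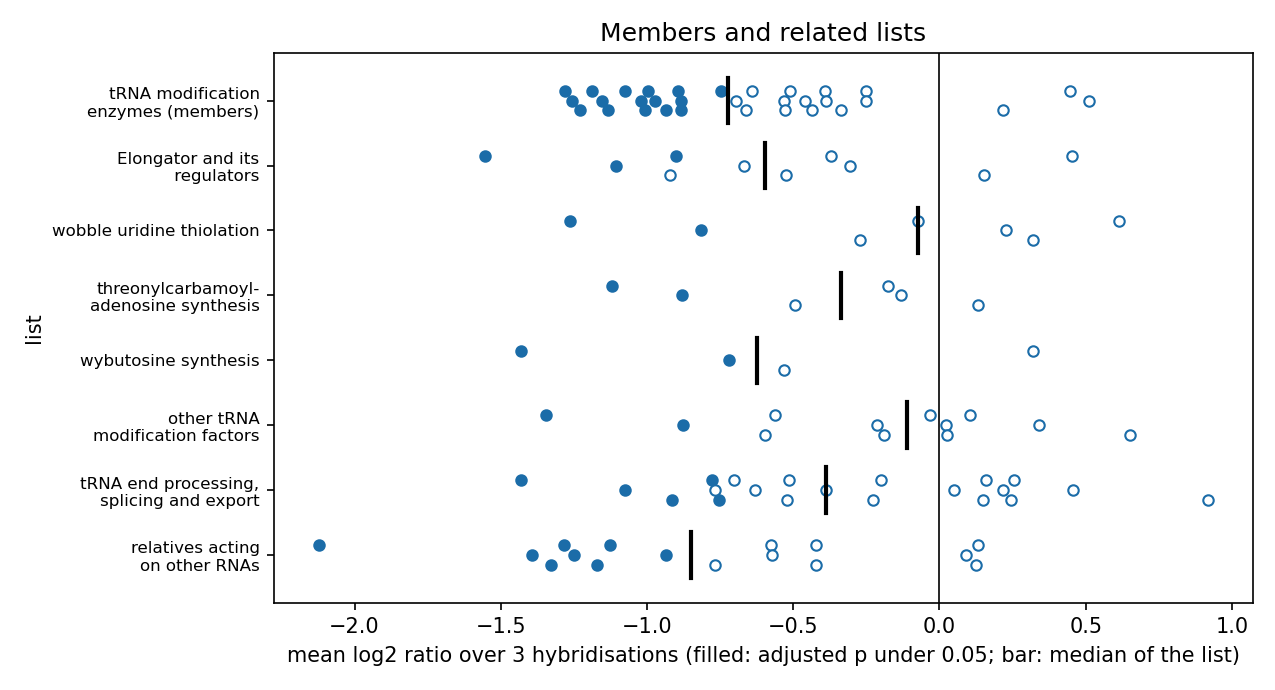
Mean log2 ratios over 3 hybridisations (x axis) of the members and of 7 related lists (y axis), a point for each gene, filled where the adjusted p was under 0.05, with a bar at each list's median. Filled points lie left of 0 in every list, and medians run from -0.85 for the relatives acting on other RNAs to -0.07 for wobble uridine thiolation.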

How the data were processed

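The authors deposited 1 value per feature and scan, read here as a log2 ratio of Cy5 over Cy3, after LOWESS normalisation that used the spots flagged 0, per the labels. No source used here gives the scanner, the spot software or the background correction. Gene names came from the platform annotation, updated through the R64 gene table (5508 of 5513 named features matched). The 2 scans of a hybridisation were averaged, a single scan being used where the other had no value, then the features of a gene. The 5349 genes with a value in all 3 hybridisations were tested for a mean other than 0 by moderated linear models (limma 3.58.1, R 4.3.3; functions lmFit and eBayes, two-sided, Benjamini-Hochberg over all genes, threshold 0.05). The procedure was tested on simulated data. Precision is limited by the 3 arrays.

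The members and lists were chosen with earlier results of these data known. Members were named by role and each related list by up to 4 genes past the threshold in each direction. TRM732, MTQ2, TRM12, PPM2, CCA1, ELP4, AHP1 and the marker genes were named, and TRM732, RTT10, TRM13 and PUS2 paired with others, after their values were seen. Promoter motifs were not analysed here. Alternatives were single arrays left out, single scan powers, scan filters, other normalisations, a random block, robust moderation and a minimum fold of 1.2.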

Additional observations from a re-analysis of the deposited data

How the results depend on the processing

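Over 14 alternatives, 13 of them planned and the omission of the low power scan of hybridisation 2 added after seeing the data, 11 of the 16 member calls (TRM3, TRM5, TRM8, TRM11, NCL1, GCD10, PUS1, PUS4, PUS7, DUS3 and DUS4) ended in no setting that measured them other than without hybridisation 3. The other 5 ended also with a minimum fold of 1.2, and TRM1 and TRM2 without hybridisation 2. The cause was not tested. With 1 array left out, in fits of 2 arrays, 0 to 26 members fell and 0 to 1 rose. Over all genes 0 to 1201 fell and 1 to 1150 rose. With the low power scans alone 8 of 18 measured members and 417 of 3444 genes fell. With features read in all 6 scans, 7 of 16 members and 255 of 2672 genes fell and 289 genes rose. With scans within 0.5, 14 of 24 members and 417 of 3442 genes fell and 272 genes rose. The median of these 24 members was -0.89. These 3 settings tested fewer genes. With a minimum fold of 1.2, 11 of 32 members and 284 of 5349 genes fell and 230 genes rose. With hybridisation as a random block 20 of 32 members and 938 of 5349 genes fell, and 1 member (PUS5) and 803 genes rose. TAD2 ranged from -0.39 to 0.87 with 1 array left out. TRM732 ranged from -0.050 to 0.094 with 1 array left out, was -0.095 with high power scans alone, and was -0.086 with hybridisation 2 read at high power only. Apart from the setting without hybridisation 3, where each related list had 0 calls, lower calls ranged from 1 to 6 for Elongator, 0 to 2 for thiolation, 1 to 2 for threonylcarbamoyladenosine, 1 to 3 for wybutosine and for other factors, 1 to 7 for end processing and 3 to 11 for relatives on other RNAs, and at most 1 gene of a list rose.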

Other observations

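The members were also arranged by where in the tRNA their product works, a grouping made after their values were seen and given without a test. Of 16 genes whose enzymes act outside the anticodon stem and loop, 11 fell and 0 rose, with a median log2 ratio of -0.89. Of 11 genes whose enzymes act within the anticodon stem and loop, 2 fell, TRM5 and TRM7, and 0 rose, with a median of -0.44. That count is near the 11.9% of all genes that fell. Without hybridisation 1, when 22.4% of all genes fell, the counts were 16 of 16 outside the anticodon stem and loop and 6 of 11 within it, and without hybridisation 3 both were 0. The 3 enzymes with sites in both places, NCL1, PUS1 and PUS7, all fell (median -1.15). The deaminases, MOD5, PUS2, PUS6, PUS9, DEG1 and TRM9 make up the 9 anticodon genes that did not pass. PUS5, which acts on ribosomal RNA, and the cofactor TRM112 were not placed. The 2 groups were not compared by a test.

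Of the 16 members that did not pass, 5 (PUS6, PUS9, TAD2, TAD3 and MOD5) passed by limma in none of the alternatives that measured them, and 2 of these, PUS6 and TAD2, had means above 0.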
